A study of Mus musculus with 6 samples.

Results

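The 10 genes described here code for immunoglobulin-family adhesion molecules of neurons: the L1 family members L1cam, Chl1 and Nfasc, the neural cell adhesion molecules Ncam1 and Ncam2, and the contactins Cntn1, Cntn2, Cntn3, Cntn4 and Cntn6. They were taken by name from 53379 genes in the count table, and all 10 were among the 21244 genes with enough counts to be tested. Gene expression was measured by bulk RNA sequencing of cortex from newborn mice (postnatal day 0). The 3 Npas3+/- samples are heterozygous for a mutation of Npas3, which codes for a transcription factor of the bHLH-PAS class, and the 3 others are wild type (WT). All 6 are labelled C57BL/6, and the labels give neither the way the allele was made nor the number of animals in a sample.

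These proteins stand on the surface of growing axons and dendrites, where their immunoglobulin and fibronectin domains bind each other, or different partners, on neighbouring cells. L1 family proteins and the longer NCAM1 forms cross the membrane, and L1 family proteins hold to the actin and spectrin skeleton through ankyrins. Contactins have no cytoplasmic part and are held by a lipid anchor, so they act beside transmembrane partners. In the developing cortex the family is known for axon growth and bundling, neuronal migration and the placing of dendrites, and later for the axon initial segment and the node of Ranvier.

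The genes lie on 6 chromosomes in mm10, and 6 of the 10 lie near another member. Cntn3, Chl1, Cntn6 and Cntn4 follow each other on chromosome 6 between 102162655 and 106699310, a stretch of 4.54 Mb, with gaps of 937.5, 742.6 and 814.3 kb. Cntn2 and Nfasc are 21.4 kb apart on chromosome 1 (132509427 to 132741797). L1cam is X-linked (73853778 to 73896105). Ncam1 is on chromosome 9 (49502136 to 49798925), Ncam2 on chromosome 16 (81200697 to 81626828) and Cntn1 on chromosome 15 (92051165 to 92341967).

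Because Npas3 protein binds DNA, 250 bases before a RefSeq start are shown for L1cam and Cntn3, the members whose genotypes did not overlap. Nfasc is also shown, as ACGTG, a core sequence of bHLH-PAS binding, was found in no other of the 9 members with windows. The windows shown lie inside the annotated spans of their genes, so an annotated start of each gene lies further upstream. Sequences are those of RefSeq (GRCm38.p6), on the strand of the gene. Capitals mark ACGTG and the E-box CANNTG, searched on both strands; in these windows the marked stretches do not overlap each other.
L1cam, chrX:73880791-73881040, minus strand: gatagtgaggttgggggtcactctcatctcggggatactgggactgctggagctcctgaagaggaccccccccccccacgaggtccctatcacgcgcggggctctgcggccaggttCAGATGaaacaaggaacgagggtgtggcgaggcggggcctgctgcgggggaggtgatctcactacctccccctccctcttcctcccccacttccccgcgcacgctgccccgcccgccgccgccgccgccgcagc
Cntn3, chr6:102464668-102464917, minus strand: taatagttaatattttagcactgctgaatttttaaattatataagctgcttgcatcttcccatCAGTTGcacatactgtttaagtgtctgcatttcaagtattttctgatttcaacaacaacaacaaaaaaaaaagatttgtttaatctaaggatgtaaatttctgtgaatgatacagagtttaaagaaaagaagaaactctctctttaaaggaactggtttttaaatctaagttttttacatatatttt
Nfasc, chr1:132707327-132707576, minus strand: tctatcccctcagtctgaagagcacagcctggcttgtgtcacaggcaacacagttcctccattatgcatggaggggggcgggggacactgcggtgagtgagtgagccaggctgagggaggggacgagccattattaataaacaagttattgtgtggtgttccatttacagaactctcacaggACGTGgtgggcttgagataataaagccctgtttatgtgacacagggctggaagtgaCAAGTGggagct
The L1cam window shown was 69.6% G and C with 20 CpG pairs, against 26.4% and 0 pairs in the Cntn3 window. A second L1cam window, not shown, was 63.2% G and C with 12 CpG pairs and held 2 CANNTG. A second Nfasc window, not shown, held neither sequence. RefSeq gave 14 windows for 9 of the 10 members, and none for Ncam1, which could not be searched. ACGTG was in 1 of these 14 and in 16.6% of all 32841 promoter windows, and CANNTG was in 8 of 14 and in 66.2% of all. A match of letters is no evidence of binding.

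Total counts per library ran from 67378231 to 87811574. Npas3 itself stood at 14.96, 14.13 and 8.61 CPM (read counts scaled to library depth) in Npas3+/- replicates 1 to 3, against 23.4, 28.4 and 25.7 CPM in the WT replicates, so the groups did not overlap. The 8 upper-layer and 8 deep-layer cortical projection neuron markers were all above 0 in every library, but so were the tested striatal, interneuron and microglial markers, so their presence alone does not set the tissue apart. Xist, the RNA of the inactive X chromosome of females, reached 3667 CPM in the library of Npas3+/- replicate 2, while no other library exceeded 2.02 CPM. The labels do not tie each replicate to its own animal, and the p-values therefore cover only the spread between these samples.

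Expression per length set a clear order among the members. In WT cortex Ncam1 was the highest at 89.0 ± 1.28 CPM per kb of exon, followed by Chl1 at 82.1 ± 4.16, Cntn2 at 67.9 ± 13.9 and L1cam at 59.5 ± 1.77 (SD, n = 3 each). Nfasc (23.0 ± 2.0) and Cntn1 (22.1 ± 3.83) formed a middle tier, again in CPM per kb. Cntn6 (5.94 ± 0.50), Cntn3 (4.45 ± 0.07), Ncam2 (3.01 ± 0.32) and Cntn4 (0.99 ± 0.23 CPM per kb) were the lowest. Among WT libraries, Chl1 and Cntn2, Cntn2 and L1cam, and Nfasc and Cntn1 were neighbours whose values overlapped, and each of the other neighbours was separated in all 3 libraries. Npas3+/- cortex had the same order except that Cntn2 (71.2 ± 6.93 CPM per kb) stood above Chl1 (68.3 ± 20.6). That exchange rested on replicate 2, with Cntn2 at 68.2 and Chl1 at 44.5 CPM per kb, and Chl1 was the higher in Npas3+/- replicates 1 and 3. The summed level of all 10 was 374, 333 and 359 CPM per kb in Npas3+/- cortex, against 364, 346 and 364 CPM per kb in WT cortex.

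**Figure D1:**
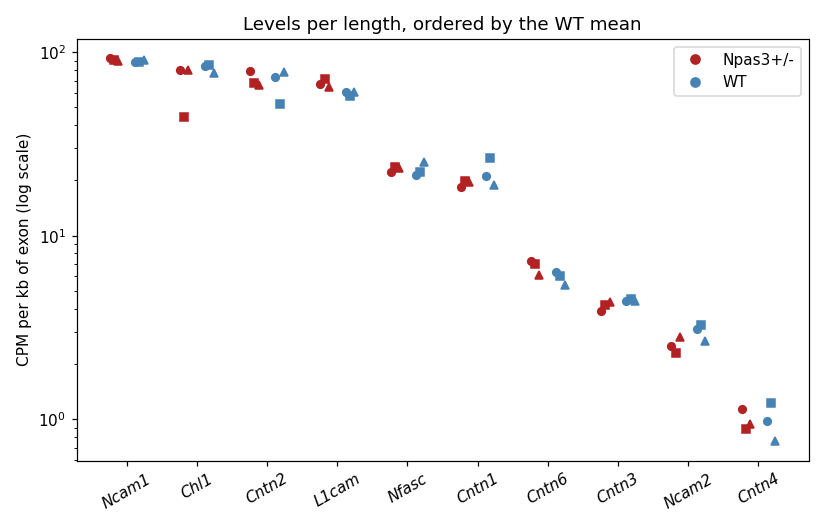
Level of each member in CPM per kb of exon (log axis), ordered by the WT mean, with Npas3+/- libraries in red on the left and WT libraries in blue on the right of each position; circles, squares and triangles are replicates 1, 2 and 3. Ncam1 is highest and Cntn4 lowest in both genotypes, and the Chl1 value of Npas3+/- replicate 2 lies apart at 44.5.

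The comparison of Npas3+/- with WT cortex asks which transcripts differ when 1 allele of Npas3 is mutant. Counts were tested with edgeR's quasi-likelihood test across all 21244 genes, with Benjamini-Hochberg adjustment and a threshold of 0.05. Of the 10 members 0 passed, where 0.0377% of all genes tested did (0.0282% higher and 0.00941% lower in Npas3+/-). DESeq2 also called 0 of the 10, against 2.41% of all genes (1.33% higher, 1.07% lower). At an unadjusted p under 0.05 there was 1 member, L1cam, where 12.1% of all genes were under it. The groups did not overlap for 2 of the 10, 1 higher and 1 lower in Npas3+/-, a share close to the 18.9% of all genes (9.70% higher, 9.18% lower). Log2 fold changes (Npas3+/- over WT) were positive for 5 members and negative for 5, from -0.27 to 0.20, with a median of 0.00 against -0.01 over all genes. Npas3 itself, at a log2 fold change of -1.04 (SE 0.20), did not pass in edgeR (adjusted p = 0.27). It passed in DESeq2 (adjusted p = 1.75e-04), so not passing in edgeR is no sign of an equal level. For single values compared by permutation, the smallest exact two-sided p of this design is 0.1.

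**Figure D2:**
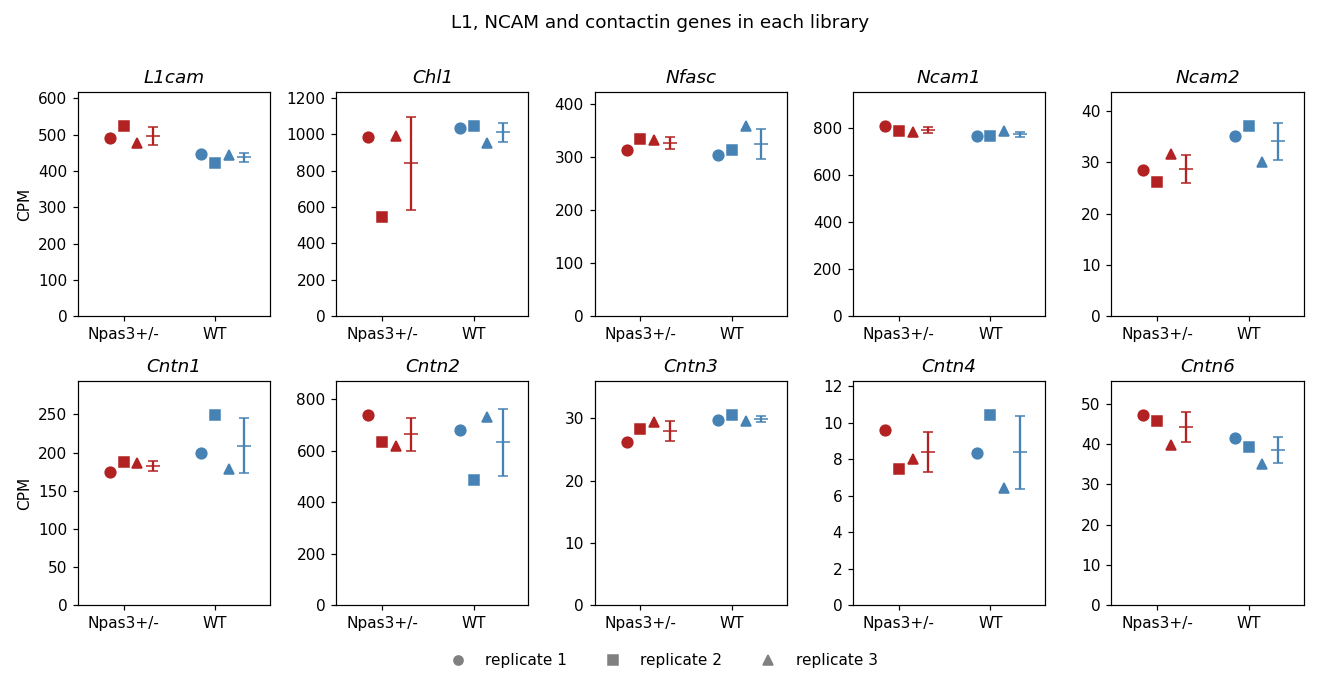
CPM of each member in every library, with Npas3+/- in red on the left and WT in blue on the right; the bar beside each group is the mean ± SD (n = 3). L1cam and Cntn3 are the panels in which the groups do not overlap, and Chl1 has 1 Npas3+/- library at 547 CPM with the other 5 libraries between 950 and 1042 CPM.

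L1cam, the founding L1 family member, which promotes axon growth and bundling, was the member furthest from equality relative to its error. Its levels were 491, 523 and 476 CPM in Npas3+/- replicates 1 to 3, against 447, 422 and 443 CPM in WT. Every Npas3+/- library lay above every WT library, with means of 497 ± 23.7 CPM in Npas3+/- and 437 ± 13.0 CPM in WT (SD, n = 3 each), or 1.14-fold. The log2 fold change was 0.18 (SE 0.05, 95% interval 0.07 to 0.30), with an adjusted p of 0.276 in edgeR and 0.131 in DESeq2, so it did not pass in either. The highest value came from Npas3+/- replicate 2, the library with Xist, and L1cam is X-linked. Without that library the log2 fold change was 0.15 (SE 0.05). In that library the median deviation of 369 X-linked genes was 0.00 on the log2 scale, against 0.01 for 10013 autosomal genes. The X-linked median was -0.02 in Npas3+/- replicates 1 and 3 and 0.01 to 0.03 in the WT libraries. A median over many genes cannot show whether X linkage bears on L1cam, which was not tested. Across all genes fold changes moved with G and C content. The median was -0.09 for the genes lowest in G and C when split into 5 equal bins and 0.08 for the highest. L1cam transcripts are at 53.3%. With this trend removed L1cam stood at 0.16 (SE 0.05). L1cam exons share 100 of their 7347 bases with Arhgap4, a protein-coding gene on the same strand. How reads in the shared bases were counted is not given in the sources used here.

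Measured over 10407 other genes that have a matched name and a mean of at least 10 CPM, those whose centred log2 CPM lay closest to L1cam over the 6 libraries were Thoc5, Rimbp2 and Fam129b, with root mean square differences of 0.011, 0.012 and 0.013. Thoc5, the closest, stood at 57.5, 60.1 and 55.2 CPM in Npas3+/- replicates 1 to 3, against 51.0, 48.7 and 51.2 CPM in WT. Among the other members the closest to L1cam was Ncam1, at 0.087, which ranked 1638 by closeness among them.

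Chl1, the close homologue of L1, which guides the migration and dendrite orientation of cortical neurons, differed between genotypes through 1 library. It stood at 983, 547 and 989 CPM in Npas3+/- replicates 1 to 3, against 1035, 1042 and 950 CPM in WT. Npas3+/- replicate 2 was at 57.6% of the lowest of the other 5 libraries, which lay close together and overlapped between genotypes. The log2 fold change was -0.27 (SE 0.20, adjusted p = 0.656 in edgeR) with all libraries and -0.03 (SE 0.05) without that replicate. It rested on 42067 counts there, so counting error was under 1% of the level (0.488%). Departures of this size were seen in every library: among all 10414 genes with a mean of at least 10 CPM, named or not, 21 were as low relative to the other 5 libraries in Npas3+/- replicate 2, and 16 to 21 in the others. The Chl1 exons overlap no annotated gene, and 0.194% of the 50-base windows in its transcripts also occur in transcripts from elsewhere.

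Nfasc, which codes for neurofascin, an organiser of the axon initial segment and the node of Ranvier, was nearly equal. It stood at 313, 334 and 333 CPM in Npas3+/- replicates 1 to 3, against 304, 314 and 357 CPM in WT, so the Npas3+/- values lay inside the WT range. For Nfasc the log2 fold change was 0.01 (SE 0.07), with a 95% interval of -0.15 to 0.17.

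Within the L1 family, L1cam made up 39.6, 51.1 and 38.4% of the summed CPM per kb of the 3 genes in Npas3+/- replicates 1 to 3, against 36.5, 35.0 and 37.0% in WT. The groups did not overlap, and the difference of 6.86 percentage points had an exact two-sided permutation p of 0.1, the smallest this design can give. Chl1 held 32% in Npas3+/- replicate 2 and 47.3 to 47.6% in the other Npas3+/- libraries, against 47.5 to 51.5% in WT. Without Npas3+/- replicate 2 the difference for L1cam was 2.82 percentage points.

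Ncam1 codes for NCAM, the main carrier of polysialic acid in the brain, and it was the steadiest member. Its levels were 805, 787 and 780 CPM in Npas3+/- replicates 1 to 3, against 764, 766 and 784 CPM in WT. The groups overlapped by a narrow margin, the log2 fold change was 0.04 (SE 0.04), and the 95% interval of -0.05 to 0.12 was the narrowest of the 10. Its exons share 417 bases with an antisense gene, Gm11149, and the use of strand in counting is not given in the sources used here.

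Ncam2, best known from olfactory axons, was far lower per length, and its mean was below WT. It stood at 28.4, 26.1 and 31.6 CPM in Npas3+/- replicates 1 to 3, against 35.2, 37.0 and 30.1 CPM in WT. WT replicate 3 lay among the Npas3+/- values, so the groups overlapped. For Ncam2 the log2 fold change was -0.25 (SE 0.11, 95% interval -0.50 to 0.01, adjusted p = 0.428 in edgeR). It was -0.13 (SE 0.12) with the G and C trend removed and -0.06 (SE 0.10) with the striatal marker score (the mean over 12 striatal markers) as a covariate. Ncam2 made up 2.63, 2.47 and 3.01% of the NCAM pair per length in Npas3+/- cortex, against 3.4, 3.56 and 2.85% in WT cortex.

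**Figure D3:**
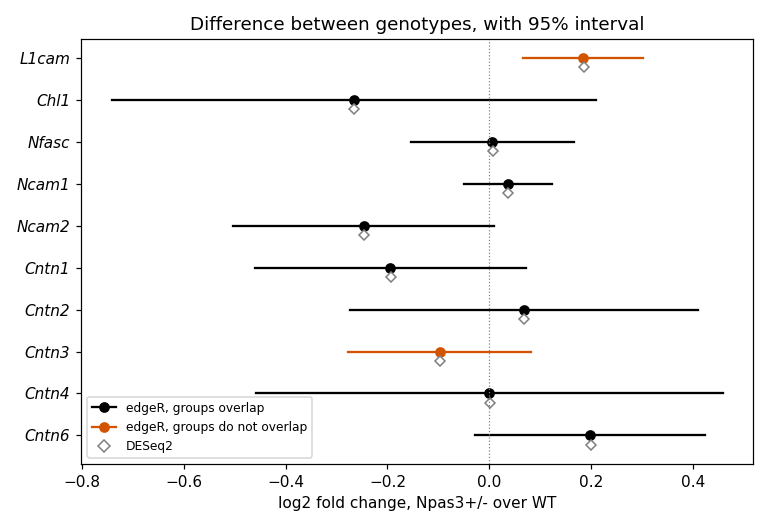
Log2 fold change of each member, Npas3+/- over WT, from edgeR (circles, with 95% intervals as lines) and DESeq2 (open diamonds, no interval drawn); orange marks the members whose groups do not overlap. The interval of L1cam, 0.07 to 0.30, is the only one that does not include 0, and those of Chl1 and Cntn4 are the widest.

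The contactins showed no common direction. Cntn2 codes for TAG-1, found on outgrowing corticofugal axons and on migrating interneurons, and it was the most abundant contactin. It stood at 736, 634 and 616 CPM in Npas3+/- replicates 1 to 3, against 681, 485 and 730 CPM in WT. The 3 Npas3+/- values lay within or just above the WT range, and the low value was WT replicate 2. Cntn2 had a log2 fold change of 0.07 (SE 0.15) with all libraries, -0.09 (SE 0.08) without WT replicate 2 and 0.19 (SE 0.15) without WT replicate 3.

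Cntn1, a partner of transmembrane proteins at axons and paranodes, had its highest value in that same WT library. Its levels were 175, 187 and 186 CPM in Npas3+/- replicates 1 to 3, against 200, 249 and 178 CPM in WT. WT replicate 3 fell within the Npas3+/- range, and the log2 fold change of -0.19 (SE 0.11, adjusted p = 0.547 in edgeR) was -0.05 (SE 0.07) without WT replicate 2 and -0.29 (SE 0.10) without WT replicate 3.
Of the summed contactin level per length, Cntn2 held 72.0, 68.1 and 68.0% in Npas3+/- cortex, against 69.0, 57.8 and 72.7% in WT. Cntn1 held 16.8, 19.8 and 20.2% in Npas3+/- cortex, against 20.0, 29.2 and 17.5% in WT. The WT libraries thus differed more among themselves than the genotypes did.

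Cntn3, a contactin whose known partners include the receptor phosphatase Ptprg, was the other member without overlap. It stood at 26.2, 28.3 and 29.4 CPM in Npas3+/- replicates 1 to 3, against 29.7, 30.5 and 29.6 CPM in WT. The gap between the groups was smaller than the spread within Npas3+/-, and the means were 28.0 ± 1.63 CPM in Npas3+/- and 29.9 ± 0.473 CPM in WT (SD, n = 3 each). The log2 fold change was -0.10 (SE 0.08, adjusted p = 0.663 in edgeR), and 0.00 (SE 0.08) with the G and C trend removed, where Cntn3 transcripts are at 40.0%. Without Npas3+/- replicate 1 it was -0.05 (SE 0.08).

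Cntn6, also called NB-3, which is linked to the orientation of apical dendrites together with Chl1, had the largest positive log2 fold change of the 10. Its levels were 47.1, 45.8 and 39.9 CPM in Npas3+/- replicates 1 to 3, against 41.5, 39.4 and 35.1 CPM in WT. Npas3+/- replicate 3 lay among the WT values, the other Npas3+/- libraries above them. For Cntn6 the log2 fold change was 0.20 (SE 0.10, 95% interval -0.03 to 0.42, adjusted p = 0.464 in edgeR), and it was 0.27 (SE 0.09) with the G and C trend removed.

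Cntn4, also called BIG-2, known from olfactory and optic axons, was the lowest member and the same on average in both genotypes. It stood at 9.61, 7.49 and 8.04 CPM in Npas3+/- replicates 1 to 3, against 8.32, 10.4 and 6.42 CPM in WT. The means were 8.38 ± 1.10 CPM in Npas3+/- and 8.38 ± 1.99 CPM in WT (SD, n = 3 each), and the 95% interval of the log2 difference ran from -0.46 to 0.46. The smallest count was 461, where counting error is 4.66%.

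**Figure D4:**
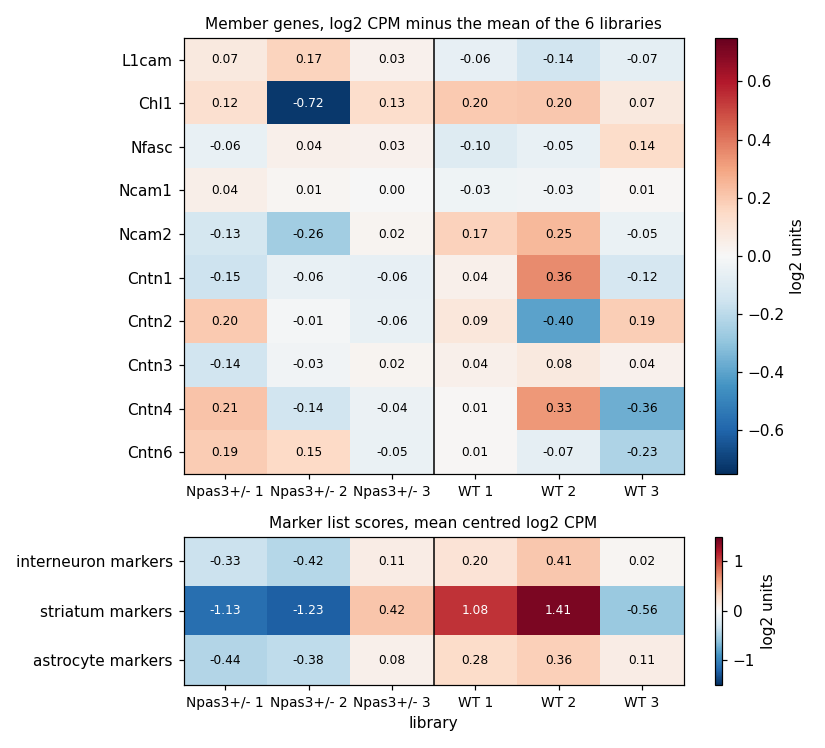
Upper panel: log2 CPM of each member in each library minus its mean over the 6 libraries; lower panel: mean of the same measure over interneuron, striatum and astrocyte markers, with Npas3+/- libraries left of the line. Chl1 in Npas3+/- replicate 2 (-0.72) and Cntn2 in WT replicate 2 (-0.40) are the lowest member values, and WT replicate 2 has the highest striatum score (1.41).

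Libraries differed within and between genotypes in markers of other cell types and regions. WT replicate 2 was the highest of the 6 libraries for 5 members and the lowest for 2. Over 12 striatal markers, all tested and with none at 0 in any library, the mean centred log2 CPM was -1.13, -1.23 and 0.42 in Npas3+/- replicates 1 to 3, against 1.08, 1.41 and -0.56 in WT. Of these markers 11 of 12 had negative log2 fold changes, and their summed level was 348 to 392 CPM in Npas3+/- and 332 to 530 CPM in WT. Of 11 interneuron markers 10 were negative, with sums of 493 to 620 CPM in Npas3+/- and 595 to 733 CPM in WT. Of 10 astrocyte markers 9 were negative, with sums of 341 to 447 CPM in Npas3+/- and 509 to 570 CPM in WT. The 4 olfactory bulb markers tested were all negative, with sums of 27.1 to 36.6 CPM in Npas3+/- and 39.9 to 60.5 CPM in WT and none at 0. The 6 Cajal-Retzius markers were also all negative, with sums of 245 to 281 CPM in Npas3+/- and 291 to 399 CPM in WT. Thalamic marker sums were lower without overlap, at 63.2 to 71.0 CPM in Npas3+/- and 72.7 to 84.9 CPM in WT. Only 2 of the 4 thalamic markers tested were negative, however. Their mean centred log2 CPM overlapped, at -0.15 to 0.04 in Npas3+/- and -0.09 to 0.21 in WT. All 8 microglial markers were negative, though their sums overlapped, at 23.3 to 41.6 CPM in Npas3+/- and 36.9 to 43.1 CPM in WT. Oligodendrocyte lineage marker sums were higher without overlap, at 311 to 329 CPM in Npas3+/- and 273 to 309 CPM in WT. Of these 8 markers 1 was negative. For them the mean centred log2 CPM overlapped, at 0.03 to 0.12 in Npas3+/- and -0.16 to 0.04 in WT. It also overlapped for olfactory bulb markers (-0.70 to 0.03 in Npas3+/-, -0.03 to 0.79 in WT). So did that of Cajal-Retzius markers (-0.51 to -0.03 in Npas3+/-, -0.09 to 0.48 in WT). Astrocyte marker means did not overlap (-0.44 to 0.08 in Npas3+/-, 0.11 to 0.36 in WT). The summed level of 10 pan-neuronal markers overlapped, at 8331 to 8522 CPM in Npas3+/- and 8263 to 8529 CPM in WT, while 5 of the 10 had negative log2 fold changes. In bulk tissue fewer cells of a type and less RNA per cell cannot be told apart, and the part of these differences in the values of the members was not tested beyond the covariate. With the striatal score as a covariate the log2 fold changes were 0.13 (SE 0.06) for L1cam, -0.08 (SE 0.24) for Chl1, 0.01 (SE 0.05) for Ncam1, -0.02 (SE 0.12) for Cntn1, -0.13 (SE 0.15) for Cntn2, 0.23 (SE 0.25) for Cntn4 and 0.20 (SE 0.14) for Cntn6, and 0 members passed.

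Partners and relatives of the family were read from 8 lists of 78 genes, of which 76 were tested. None of the 76 passed over all genes in edgeR, with 19 at an unadjusted p under 0.05 (9 higher, 10 lower), where 12.1% of all genes were under it. DESeq2 called 5, 2 higher and 3 lower, or 6.58% against 2.41% of all genes tested. In these shares genes without an adjusted p in DESeq2 count as not called. The lists were also chosen with earlier results of these data known, so the shares are not like for like. The groups did not overlap for 18 of the 76, or 23.7%, against 18.9% of all genes. The median log2 fold change was -0.02, against -0.01 over all genes.

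**Figure D5:**
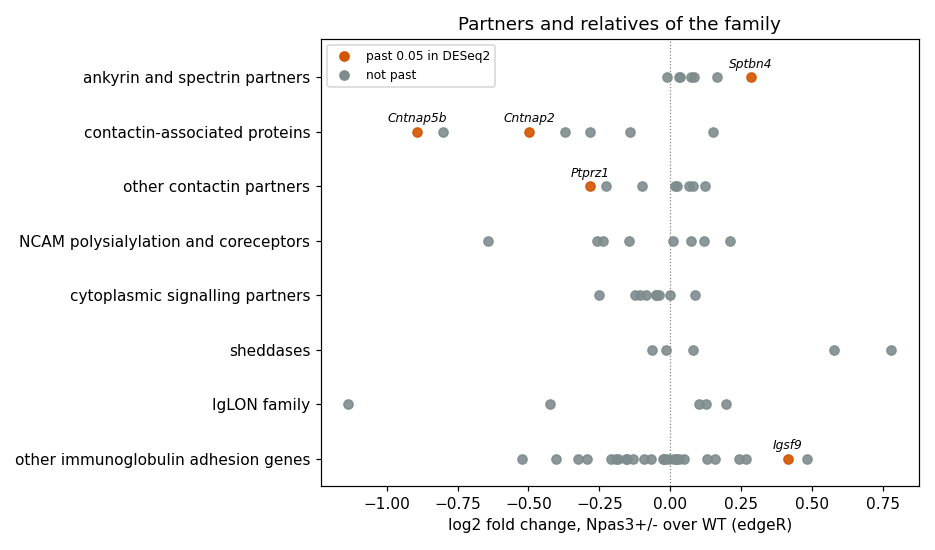
Log2 fold change, Npas3+/- over WT (edgeR), of each tested gene in the 8 lists of partners and relatives; orange marks genes past 0.05 in DESeq2 and grey all others. Of the 7 contactin-associated proteins 6 are left of 0, and Lsamp is the furthest left point, at -1.14.

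The contactin-associated proteins, transmembrane neurexin-like partners of contactins, had a median log2 fold change of -0.37 over 7 genes, with 6 of the 7 negative and 0 past the threshold in edgeR. The groups did not overlap for 3 of the 7, against 18.9% of all genes, and 4 were at an unadjusted p under 0.05, against 12.1% of all genes. DESeq2 called 2 of the 7, against 2.41% of all genes. Since this list was chosen with earlier results of these data known, these shares are not like for like. Cntnap2 stood at 45.0, 39.8 and 47.6 CPM in Npas3+/- replicates 1 to 3, against 57.0, 77.0 and 52.9 CPM in WT. Its groups did not overlap, at a log2 fold change of -0.50 (SE 0.15, adjusted p = 0.288 in edgeR and 0.0365 in DESeq2). Cntnap5b stood at 4.40, 4.45 and 5.80 CPM in Npas3+/- and 9.62, 10.9 and 6.63 CPM in WT, again without overlap. Cntnap5b had a log2 fold change of -0.89 (SE 0.22, adjusted p = 0.276 in edgeR and 0.00932 in DESeq2). Both genes were highest in WT replicate 2, and with the striatal score as a covariate Cntnap2 stood at -0.27 (SE 0.15) and Cntnap5b at -0.48 (SE 0.16). Without WT replicate 2 Cntnap2 stood at -0.32 (SE 0.10).

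Ankyrin and spectrin genes, which code for the membrane skeleton that L1 family proteins bind, had a median of 0.07 over 7 genes. Sptbn4, the beta-IV spectrin of the axon initial segment, stood at 249, 227 and 227 CPM in Npas3+/- replicates 1 to 3, against 197, 194 and 187 CPM in WT. All Npas3+/- values were above all WT values, with a log2 fold change of 0.28 (SE 0.05, adjusted p = 0.27 in edgeR and 0.00932 in DESeq2), or 0.16 (SE 0.06) with the G and C trend removed. Sptan1, alpha-II spectrin, was at 0.08 (SE 0.04). The ankyrins Ank2 (0.03, SE 0.04) and Ank3 (0.16, SE 0.10), named here after their values were seen, overlapped between groups.

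Among the other contactin partners, the median was 0.02 over 8 genes. Ptprz1, a receptor phosphatase that binds Cntn1 and is also a radial glia marker, stood at 437, 452 and 475 CPM in Npas3+/- replicates 1 to 3, against 539, 542 and 577 CPM in WT. Its groups did not overlap, and the log2 fold change was -0.28 (SE 0.05, adjusted p = 0.27 in edgeR and 0.00635 in DESeq2). With the G and C trend removed Ptprz1 stood at -0.21 (SE 0.06). The 10 radial glia markers, Ptprz1 among them, summed to 1065 to 1275 CPM in Npas3+/- and 1470 to 1524 CPM in WT. The matrix protein gene Tnc was at -0.23 (SE 0.13) with overlap, and at -0.11 (SE 0.12) without WT replicate 3.

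Genes of NCAM polysialylation and its coreceptors had a median of -0.07 over 8 genes. St8sia2, the polysialyltransferase most active on NCAM before and around birth, stood at 353, 365 and 347 CPM in Npas3+/- replicates 1 to 3, against 327, 316 and 338 CPM in WT. These groups did not overlap, and the log2 fold change was 0.12 (SE 0.05, adjusted p = 0.379 in edgeR), or 0.07 (SE 0.05) with the striatal covariate. Prnp, the prion protein gene, whose product binds NCAM, was at -0.24 (SE 0.09). Of 9 cytoplasmic signalling partners 8 were negative, with a median of -0.05, and the microtubule protein gene Dcx was at -0.12 (SE 0.04), or -0.04 (SE 0.04) with the G and C trend removed. Moesin (Msn), which links membrane proteins to actin, was at -0.25 (SE 0.13), and at -0.14 (SE 0.13) without WT replicate 3 or -0.16 (SE 0.13) without Npas3+/- replicate 2.

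Of the 6 sheddase genes, whose proteases cut L1 family proteins from the membrane, 5 were tested and 0 passed in edgeR or DESeq2, which gave Bace2 no adjusted p. Adam8, known to cut Chl1, stood at 6.58, 6.41 and 4.73 CPM in Npas3+/- replicates 1 to 3, against 4.29, 3.66 and 3.94 CPM in WT. Its groups did not overlap (log2 fold change 0.58, SE 0.18, adjusted p = 0.301 in edgeR), while Bace2, at about 1 CPM, overlapped (0.78, SE 0.41). Bace1, another protease that cuts Chl1, named here after its values were seen, was at 73.2 CPM in Npas3+/- replicate 2, the library in which Chl1 was low. It stood at 135 CPM in both other Npas3+/- libraries and at 135, 138 and 85.9 CPM in WT. In WT replicate 3, where Bace1 was at 85.9 CPM, Chl1 was at 950 CPM. A link between Bace1 and Chl1 levels was not tested.

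In the IgLON family, small lipid-anchored immunoglobulin adhesion proteins, the log2 fold changes had a median of 0.10 over 5 genes and 0 passed. Opcml was at 0.20 (SE 0.07) and Negr1 at -0.42 (SE 0.17), each with overlap. With the striatal covariate Opcml stood at 0.08 (SE 0.07) and Negr1 at -0.10 (SE 0.13), and without WT replicate 2 Negr1 stood at -0.22 (SE 0.12). The value of -1.14 (SE 0.58) for Lsamp, also named after its values were seen, came from WT replicate 1 at 278 CPM, where the other 5 libraries lay between 51.1 and 68.2 CPM. Of 27 further immunoglobulin adhesion genes tested, 11 were positive and 16 negative, with a median of -0.02. Igsf9, a dendrite and synapse adhesion gene, stood at 112, 115 and 110 CPM in Npas3+/- replicates 1 to 3, against 89.6, 75.6 and 88.3 CPM in WT. Its groups did not overlap, with a log2 fold change of 0.41 (SE 0.08, adjusted p = 0.27 in edgeR and 0.00183 in DESeq2). With the G and C trend removed Igsf9 stood at 0.33 (SE 0.08). Cadm4, a nectin-like adhesion gene, was at 0.13 (SE 0.04, adjusted p = 0.304 in edgeR), or 0.03 (SE 0.04) with the G and C trend removed.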

How the data were processed

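RNA from 3 Npas3+/- and 3 WT samples of cortex was analysed from the table of raw read counts per gene that the authors deposited. The submitters' processing notes name mm10, featureCounts, HISAT2 2.1.0 and Trimmomatic 0.3.8; annotation, strand use and multiple matches are not given in the sources used here. Columns marked NP were taken as Npas3+/-, the only genotype besides WT. Of 53379 gene identifiers, 53274 matched GENCODE M21.

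Counts were analysed with edgeR 4.0.16 in R 4.3.3: filterByExpr, TMM scaling, glmQLFit and glmQLFTest with genotype as the only term, and Benjamini-Hochberg adjustment over all 21244 genes tested. CPM are depth-scaled by TMM. CPM per kb divides them by the union of annotated exons. The SE was taken as the size of the log2 fold change over the root of the F statistic. DESeq2 1.42.0 and limma 3.58.1 (voom) were alternatives, with other scalings, filters, covariates, the replicate number as a block and each library left out. Steps were tested on simulated counts.

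The members and gene lists were chosen with earlier results of these data known. Genes named were Npas3, all members, the 2 smallest p in each list of partners, the 3 genes nearest to L1cam, and those said to be named after their values were seen. Counting error covers sampling of reads only.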

Additional observations from a re-analysis of the deposited data

How the results depend on the processing

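Under all 18 alternatives 0 members passed the threshold, and L1cam, Chl1, Ncam1, Ncam2, Cntn1, Cntn3 and Cntn6 kept their direction. The log2 fold change of L1cam ran from 0.13 to 0.22 (adjusted p 0.131 to 0.798). Directions turned only for 3 members near 0. Nfasc (0.01) stood at -0.0077 with upper-quartile scaling, -0.0024 with a filter of 1 CPM in 3 libraries, -0.058 with the striatal covariate, -0.035 with the GC correction and -0.033 with that correction and the block. Cntn2 (0.07) stood at -0.13 with the striatal covariate. Cntn4 stood at 7.04e-04 with RLE scaling, 5.57e-04 in DESeq2, 0.013 with limma-voom, 0.020 with the replicate block, 0.0013 without mitochondrial and haemoglobin genes, 0.23 with the striatal covariate, 0.071 with the GC correction and 0.090 with that correction and the block. With 1 library left out Nfasc ran from -0.038 to 0.082, Cntn2 from -0.091 to 0.19 and Cntn4 from -0.16 to 0.19; the cause was not tested. The members' median, 0.0026, was -0.038 with the striatal covariate and -0.035 to 0.016 with 1 library left out.

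Over all genes 8 passed in edgeR and 511 in DESeq2; 7 to 16 passed with 1 library left out (16 without WT replicate 1). No pairing by replicate number was seen. Deviations from the group means correlated at 0.037, -0.030 and -0.088 between same-numbered libraries, and 2 of 6 libraries correlated best with their own number. Such a check cannot show whether same-numbered samples were handled together. With the replicate block 3 genes passed, and 3 with the GC correction and the block. Counting error was at most 4.66% of a member's level, in the shallowest count of Cntn4.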
